A study of Mus musculus with 5 samples.

Results

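The genes described here are 9 genes of retinoid metabolism and response, chosen by name from the 21835 genes of the deposited table. They are *Aldh1a1*, *Aldh1a2*, *Aldh1a3*, *Dhrs3*, *Cyp26b1*, *Crabp1*, *Crabp2*, *Rarb* and *Rarg*, and each was found once in the table by its Ensembl identifier. Bulk mRNA was sequenced from murine lung cancer-associated fibroblasts (CAFs), the connective tissue cells of a tumor. CAF-vec (2 samples, labelled WT control) carried an empty lentiviral vector. CAF-200 (3 samples, labelled miR-200 overexpression) carried a cluster encoding miR-200b, miR-429 and miR-200a, microRNAs best known for holding epithelial cells in their epithelial state. Both groups were cultured in alpha-MEM with serum and selected for the vector, so the vector and the drug selection are shared by the controls. The labels name a vector with neomycin resistance introduced into CAFs and selection with G418, whereas the methods name hygromycin resistance and lung fibroblasts. The methods also speak of triplicate RNA, and 2 CAF-vec samples are analysed here. Neither the strain nor the age of the mice is in the sources used here. Nothing in them says that the samples of a group came from separate cultures, so *p* values measure the spread between these samples, which may be technical.

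Retinoids are vitamin A and its derivatives. Cells take up retinol, oxidise it to retinal and then, irreversibly, to retinoic acid, which binds nuclear receptors (RARs, paired with RXRs) and so switches target genes on or off. The amount of retinoic acid is set by enzymes on both sides, those that make it (retinaldehyde dehydrogenases) and those that reduce retinal back to retinol or break retinoic acid down. In the lung, retinoic acid is known for its part in airway and alveolar development, and fibroblasts are among the cells that store vitamin A and make retinoic acid.

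Values are in CPM, counts divided so that every sample has 1 common total, and the authors' table carries TMM in its name, a method of scaling libraries to each other. Columns summed to between 999956 and 1000111 CPM, so the depth of each sample is unknown. These near-equal sums show no scaling beyond a common total, and whether TMM scaling was kept in the values cannot be told. Fold-changes are CAF-200 minus CAF-vec on log2(CPM + 0.5), which understates the change of genes with low values. A gene was tested when it had at least 0.5 CPM in at least 2 samples, as 12175 genes did. Groups were compared with limma, with *p* values adjusted over all of these by Benjamini-Hochberg, and a gene is said to be called at an adjusted *p* under 0.01 with a log2 fold-change beyond 1. Between the CAF-vec samples the log2 difference had an SD of 0.490 over tested genes, against 0.192 to 0.204 for pairs of CAF-200 samples. Of 9 fibroblast markers, 8 were at 0.5 CPM or more in every sample, and the exception was *Fap*. Added up, they reached 14145 CPM for CAF-vec 1, which stood apart, against 7453 CPM for CAF-vec 2 and 6577 to 7276 CPM for the CAF-200 samples. *Dcn* (log2 fold-change 2.75, limma adjusted *p* = 0.000837) and *Thy1* (1.46, limma adjusted *p* = 0.00290) rose, and the other 6 tested did not pass the adjusted *p* of 0.01. All 7 epithelial markers were under 0.5 CPM in every sample, as were 4 of 5 immune and 3 of 4 endothelial markers. Of 5 mesothelial markers, 4 were under 0.5 CPM in every sample, and *Msln* was the exception. Summed mesothelial levels ranged over 5.99 to 7.15 CPM in CAF-vec, against 1.26 to 1.90 CPM in CAF-200.

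Since the added microRNAs are the only stated difference between the groups, their mature sequences are shown first, 5′ to 3′, with the seed (bases 2 to 8, which pair with a target) in capitals. They are from RefSeq on GRCm38.p6, where all are on the minus strand of chromosome 4.
miR-200b-3p: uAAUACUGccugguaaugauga
miR-429-3p: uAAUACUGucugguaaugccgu
miR-200a-3p: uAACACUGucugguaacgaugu
They lie at chr4:156055685-156055706, chr4:156053916-156053937 and chr4:156054911-156054932, in the order printed. miR-200b and miR-429 share the seed AAUACUG, whose match in a transcript is CAGTATT, and miR-200a has the seed AACACUG, whose match is CAGTGTT. The mRNA libraries do not measure the mature microRNAs, so their level in these samples was not analysed here.

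The 7-base matches were looked for in the longest 3′-UTR that GENCODE M21 annotates for each gene. CAGTATT was in none of the 9 retinoid genes. CAGTGTT was in 3 of them, with 2 copies in *Cyp26b1* and 1 each in *Aldh1a1* and *Rarb*. These 4 sites are shown with the match in capitals, because their genes had different responses in CAF-200.
Cyp26b1, first site: agccaggactgtatgcccatgaCAGTGTTa
Cyp26b1, second site: actgatcaaatggtgaccagaaCAGTGTTc
Aldh1a1 site: ttcttaagcaaaaggaattcatCAGTGTTa
Rarb site: cctccaaggcaaaaacactgtcCAGTGTTa
On GRCm38 the matches lie in *Cyp26b1* at chr6:84574020-84574026 and chr6:84573816-84573822 (minus strand), in *Aldh1a1* at chr19:20643088-20643094 (plus strand) and in *Rarb* at chr14:16431268-16431274 (minus strand). They begin 241 and 445 bases into the 2853 bases of the *Cyp26b1* 3′-UTR, 122 bases into the 499 bases of *Aldh1a1* and 797 bases into the 1232 bases of *Rarb*. Among the 12060 tested genes with an annotated 3′-UTR, 20.9% held CAGTGTT, 15.7% held CAGTATT and 30.3% held either, with a median length of 1174 bases. A match is a run of letters and not a measured binding site. Of the 3 genes that hold one, *Cyp26b1* was lower in CAF-200, *Aldh1a1* had overlapping values and *Rarb* had higher values, as described below by role. *Rarg*, which was also lower, held neither match in its 1086 bases.

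**Figure D1:**
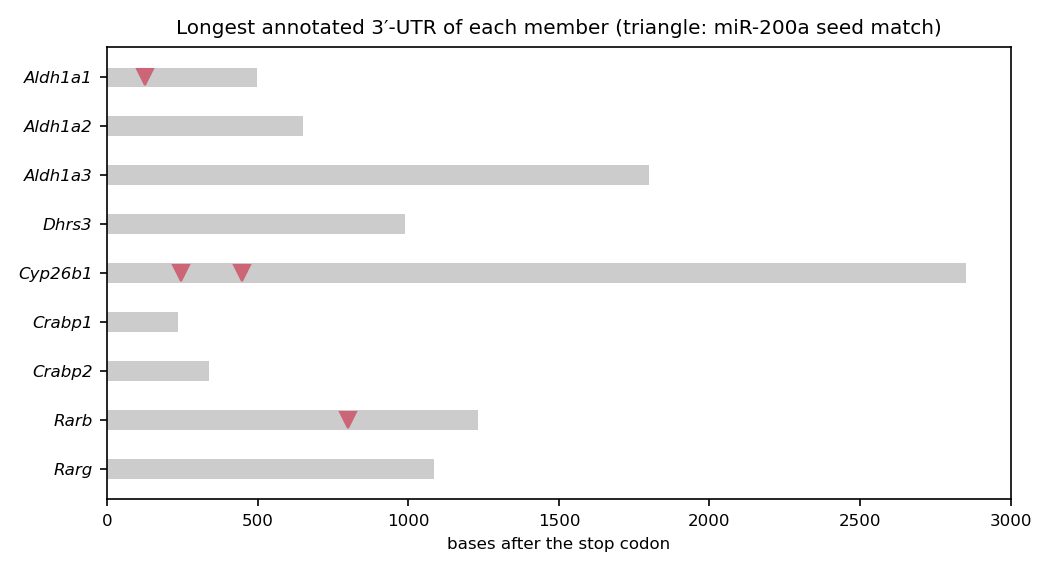
Bars give the length in bases of the longest annotated 3′-UTR of each of the 9 genes, starting from the stop codon, and triangles mark matches to the miR-200a seed. *Cyp26b1* has the longest 3′-UTR (2853 bases) with 2 matches, *Aldh1a1* and *Rarb* have 1 each, and the other 6 genes have none.

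Of the 9 genes, 8 reached the level for testing and *Aldh1a2* did not. *Cyp26b1* was the single gene called lower in CAF-200, and among all tested genes 2.35% were called lower. None was called higher (2.37% of all genes), while 1, *Rarb*, was higher at an unadjusted *p* under 0.05 in limma (17.3% of all genes). At an adjusted *p* under 0.01 with no requirement on size, 2 were lower, *Cyp26b1* and *Rarg* (5.57% of all genes), and none was higher (4.45% of all genes). At an unadjusted *p* under 0.05, 5 were lower, against 27.6% of all genes. Every CAF-200 sample was below both of CAF-vec for 6 of the 8 (37.3% of all genes) and above both for 1 (24.3% of all genes). The log2 fold-change was below 0 for 7 of the 8, with a median of -0.56, against a median of -0.094 over all genes tested, of which 7097 were below 0 and 5078 above. Centring each sample on its median gene left 1 of the 9 called, and moved the calls among all genes from 286 lower and 289 higher to 228 lower and 365 higher. In bulk samples, fewer cells of a type and less RNA per cell cannot be told apart.

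**Figure D2:**
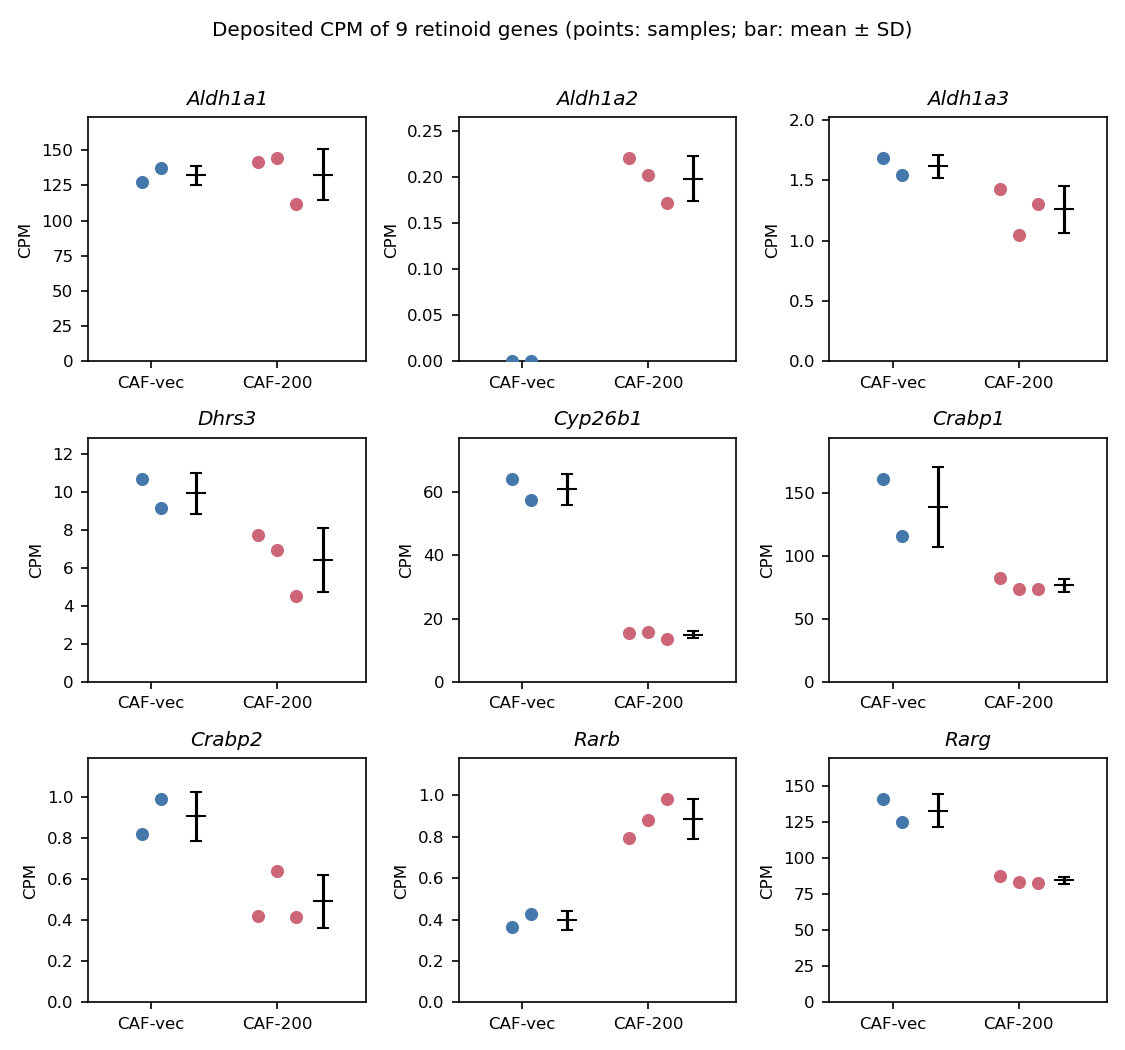
Each panel gives the deposited CPM of 1 gene (linear axis from 0), with a point for each of 2 CAF-vec and 3 CAF-200 samples and a bar for the mean ± SD, left out for *Aldh1a2* in CAF-vec, where both values are 0. The groups do not overlap for *Aldh1a3*, *Dhrs3*, *Cyp26b1*, *Crabp1*, *Crabp2* and *Rarg* (lower in CAF-200) or for *Rarb* and *Aldh1a2* (higher), and overlap for *Aldh1a1*.

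*Cyp26b1* encodes a cytochrome P450 that oxidises retinoic acid to inactive products and so lowers its level in a cell. The gene (ENSMUSG00000063415) lies on the minus strand of chromosome 6, from 84571414 to 84593908 on GRCm38. It was at 64.1 and 57.3 CPM in CAF-vec, against 15.3, 15.7 and 13.6 CPM in CAF-200. The groups lay far apart, and the spread within each was small, 60.7 ± 4.82 CPM (SD, n = 2) against 14.9 ± 1.12 CPM (SD, n = 3). The mean was 4.08 times as high in CAF-vec, and *Cyp26b1* fell by 1.99 on the log2 scale (standard error, SE, 0.107, 95% interval -2.26 to -1.73, limma adjusted *p* = 0.00109). By the size of the fold-change this was rank 36 among the falls of the 12175 genes tested. Leaving out any 1 of the 3 CAF-200 samples kept the log2 fold-change between -2.03 and -1.93 and raised the adjusted *p* to between 0.0132 and 0.0153, above the threshold of 0.01. With either CAF-vec sample left out, the gene was still called. *Msln*, the mesothelial marker named above, moved the same way, from 5.74 and 6.68 CPM in CAF-vec to 1.54, 1.15 and 0.986 CPM in CAF-200 (log2 fold-change -1.97, limma adjusted *p* = 0.00290), and its part in the result was not tested.

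The paralogs of *Cyp26b1* had far lower levels. Levels of different genes are compared here per length, in CPM per kb of annotated exon sequence, joined over all transcripts of a gene. *Cyp26b1* was at 11.3 CPM per kb in CAF-vec and 2.78 in CAF-200, whereas *Cyp26a1* was at 0.0392 and 0.0155 and *Cyp26c1* at 0.122 and 0.0119. *Cyp26a1* and *Cyp26c1* were both too low to be tested.

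The tested genes whose pattern over the 5 samples was most like that of *Cyp26b1* were *Vip*, *Aldh1a7* and *Ifit3*. The measure was the root mean square difference of log2(CPM + 0.5) after centring each gene on its mean, which was 0.0856 for *Vip*, 0.0895 for *Aldh1a7* and 0.0937 for *Ifit3*. *Vip* encodes vasoactive intestinal peptide, *Ifit3* is an interferon-induced gene, and *Aldh1a7* belongs to the same enzyme family as *Aldh1a1*. Their log2 fold-changes were -1.88, -2.15 and -1.88 for *Vip*, *Ifit3* and *Aldh1a7*.

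The retinaldehyde dehydrogenases, which oxidise retinal to retinoic acid, are encoded by *Aldh1a1*, *Aldh1a2* and *Aldh1a3*. *Aldh1a1* (ENSMUSG00000053279, chromosome 19, plus strand, 20492715 to 20643465) was at 127.3 and 137.1 CPM in CAF-vec, against 141.7, 144.4 and 111.5 CPM in CAF-200. Its lowest and its highest value were both in CAF-200, so the groups overlapped. The means were 132.2 ± 6.92 CPM (SD, n = 2) and 132.5 ± 18.2 CPM (SD, n = 3), and the log2 fold-change was -0.0048 with a 95% interval of -0.35 to 0.34 (limma adjusted *p* = 0.982). Its sign depended on the scaling, with 0.10 after quantile normalization and 0.092 after median centring.

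*Aldh1a3* (ENSMUSG00000015134, chromosome 7, minus strand, 66390890 to 66427517) was at 1.68 and 1.55 CPM in CAF-vec, against 1.43, 1.05 and 1.30 CPM in CAF-200. Each CAF-200 value was under the lower CAF-vec value, by a narrow margin. The difference did not pass the test, with a log2 fold-change of -0.27 (SE 0.154, 95% interval -0.65 to 0.11, limma adjusted *p* = 0.220).

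*Aldh1a2* (ENSMUSG00000013584, chromosome 9, plus strand, 71215789 to 71296243) was listed at 0 in CAF-vec 1 and CAF-vec 2, against 0.221, 0.203 and 0.173 CPM in CAF-200. All 3 CAF-200 values were above 0 and under the level required for testing. A listed 0 may not mean the same in both groups. The CAF-200 samples had their zeros in the same 6127 genes, and each held 816 to 1108 genes with values above 0 but under 0.005 CPM, of which the CAF-vec samples held 0. With the filter on low values removed, *Aldh1a2* had a log2 fold-change of 0.48 (SE 0.0507, limma adjusted *p* = 0.00734), a size that depends on the added 0.5 CPM.

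Within this family the levels per length were far apart. *Aldh1a1* was at 26.8 CPM per kb in each group, *Aldh1a3* at 0.350 in CAF-vec and 0.273 in CAF-200, and *Aldh1a2* at 0.0878 in CAF-200. The order from *Aldh1a1* through *Aldh1a3* to *Aldh1a2* was the same in both groups and no neighbours in it overlapped. A rodent paralog of *Aldh1a1*, *Aldh1a7*, was at 5.20 CPM per kb in CAF-vec and 1.25 in CAF-200. Its transcript was 89.5% identical to that of *Aldh1a1* over 2017 aligned bases, and 1 of the 2259 windows of 100 bases in *Aldh1a1* was found unchanged in *Aldh1a7*. How reads of these 2 genes were split was set by the authors' counting, and both are to that extent uncertain.

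*Dhrs3* encodes a short-chain dehydrogenase that reduces retinal to retinol, taking it away from retinoic acid synthesis, and it is itself known to be induced by retinoic acid. The gene (ENSMUSG00000066026) lies on the plus strand of chromosome 4, from 144892827 to 144928209. It was at 10.7 and 9.12 CPM in CAF-vec, against 7.74, 6.92 and 4.53 CPM in CAF-200. The CAF-200 values were all below both CAF-vec values but spread widely, with a coefficient of variation of 26.1%. The difference did not pass the test (log2 fold-change -0.62, SE 0.230, 95% interval -1.19 to -0.05, limma adjusted *p* = 0.0910).

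*Crabp1* and *Crabp2* encode cellular retinoic acid binding proteins. CRABP2 hands retinoic acid to nuclear receptors, while CRABP1 holds it in the cytosol. *Crabp1* (ENSMUSG00000032291, chromosome 9, plus strand, 54764748 to 54773110) was at 161.4 and 116.1 CPM in CAF-vec, against 82.4, 73.9 and 73.7 CPM in CAF-200. The CAF-vec samples differed from each other more than the CAF-200 samples did, and all CAF-200 values were lower. The means were 138.8 ± 32.0 CPM (SD, n = 2) and 76.7 ± 4.93 CPM (SD, n = 3). The log2 fold-change was -0.83 (SE 0.157, 95% interval -1.22 to -0.45), and the adjusted *p* of 0.0146 (limma) missed the threshold of 0.01. It passed after quantile normalization (log2 fold-change -0.73, limma adjusted *p* = 0.00916), where 3 of the 9 genes were lower at that threshold (5.00% of all genes). *Crabp1* also depended on which CAF-vec sample was used, with a log2 fold-change of -1.07 (limma adjusted *p* = 3.15e-05) without CAF-vec 2, where it was called along with 7.53% of all genes (lower), and -0.60 (limma adjusted *p* = 0.000953) without CAF-vec 1.

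*Crabp2* (ENSMUSG00000004885, chromosome 3, plus strand, 87948666 to 87953376) was at 0.821 and 0.989 CPM in CAF-vec, against 0.422, 0.641 and 0.414 CPM in CAF-200. All CAF-200 values were below both CAF-vec values, and the difference did not pass the test (log2 fold-change -0.51, SE 0.177, 95% interval -0.94 to -0.07, limma adjusted *p* = 0.0780). Per length, *Crabp1* was by far the more abundant of the pair, at 173.0 CPM per kb in CAF-vec and 95.6 in CAF-200, against 0.685 and 0.372 for *Crabp2*.

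The receptors act last in the pathway. *Rarg* encodes retinoic acid receptor gamma (ENSMUSG00000001288, chromosome 15, minus strand, 102234938 to 102257517). It was at 140.6 and 124.8 CPM in CAF-vec, against 87.4, 83.4 and 82.4 CPM in CAF-200. The groups were well separated, with means of 132.7 ± 11.2 CPM (SD, n = 2) and 84.4 ± 2.64 CPM (SD, n = 3). *Rarg* fell by 0.65 on the log2 scale (SE 0.0931, 95% interval -0.88 to -0.42, limma adjusted *p* = 0.00771), so it passed the test without reaching the size required for a call. Without any 1 of the CAF-200 samples its adjusted *p* was 0.0449 to 0.0549 (limma).

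*Rarb* encodes retinoic acid receptor beta and is a textbook target of retinoic acid, which acts through a response element in its promoter. The gene (ENSMUSG00000017491) lies on the minus strand of chromosome 14, from 16430839 to 16819156. It was at 0.363 and 0.429 CPM in CAF-vec, against 0.792, 0.883 and 0.981 CPM in CAF-200. All CAF-200 values were above both CAF-vec values, and all 5 were under 1 CPM. The means were 0.396 ± 0.0463 CPM (SD, n = 2) and 0.885 ± 0.0948 CPM (SD, n = 3), a ratio of 2.24. The log2 fold-change of 0.63 (SE 0.152, 95% interval 0.25 to 1.00) had an adjusted *p* of 0.0293 (limma) and did not pass the threshold of 0.01. Of 5265 exon bases of *Rarb*, 1793 overlap exons of *Top2b*, a topoisomerase gene on the opposite strand, and 227 overlap those of *Gm48162*. The libraries keep the strand, but whether the counting used it is not given in the sources used here. *Top2b* was at 83.0 and 60.3 CPM in CAF-vec, against 57.3, 53.3 and 54.2 CPM in CAF-200, the opposite direction to *Rarb*. No exon of the other 8 genes overlapped that of another annotated gene.

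Since *Rarb* was the single tested gene of the 9 whose values were all higher in CAF-200, and its promoter is the known site of retinoic acid control, the promoters were searched for the response element. RefSeq (GRCm38.p6) promoters, 250 bases before to 50 after each RefSeq start, matched 7 of the 9 genes, with 11 promoters in all; *Aldh1a3* and *Crabp2* had no entry. The search was for a pair of hexamers, each NGNTCA (its first N being A or G and the other G or T), in the same direction with 5, 2 or 1 bases between them, on both strands. It found 1, in *Rarb*, with a spacer of 5 bases, shown in capitals with the bases around it.
Rarb promoter: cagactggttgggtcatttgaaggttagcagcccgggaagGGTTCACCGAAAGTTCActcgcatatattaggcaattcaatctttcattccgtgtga
The stretch is chr14:16575473-16575569 on the minus strand, and the element lies 53 to 37 bases before the start that RefSeq gives at 16575476. This start is inside the span given above, 243680 bases from its 5′ end. Of 7 *Rarb* transcripts in GENCODE, 5 begin within 1000 bases of it, and 2 of these begin before the element, which then falls in their first exon. The other 2 transcripts begin at 16819156 and 16819005, and the deposited values do not tell transcripts apart. Among 32851 promoters in the table, 0.0974% held such a pair with a spacer of 5 bases, 0.268% with 2 and 0.222% with 1. The match describes the letters in this window, and no match elsewhere says only that these letters are not in those windows.

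Per length, the order of the receptors was *Rarg*, *Rara* and *Rarb* in both groups. *Rarg* was at 31.1 CPM per kb in CAF-vec and 19.8 in CAF-200, and *Rarb* at 0.0752 and 0.168. *Rara*, which encodes retinoic acid receptor alpha and is not among the 9, was at 12.6 and 9.81 CPM per kb. No 2 neighbours in this order overlapped within a group, so the level of *Rarb* stayed far below those of *Rarg* and *Rara* in CAF-200 too.

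**Figure D3:**
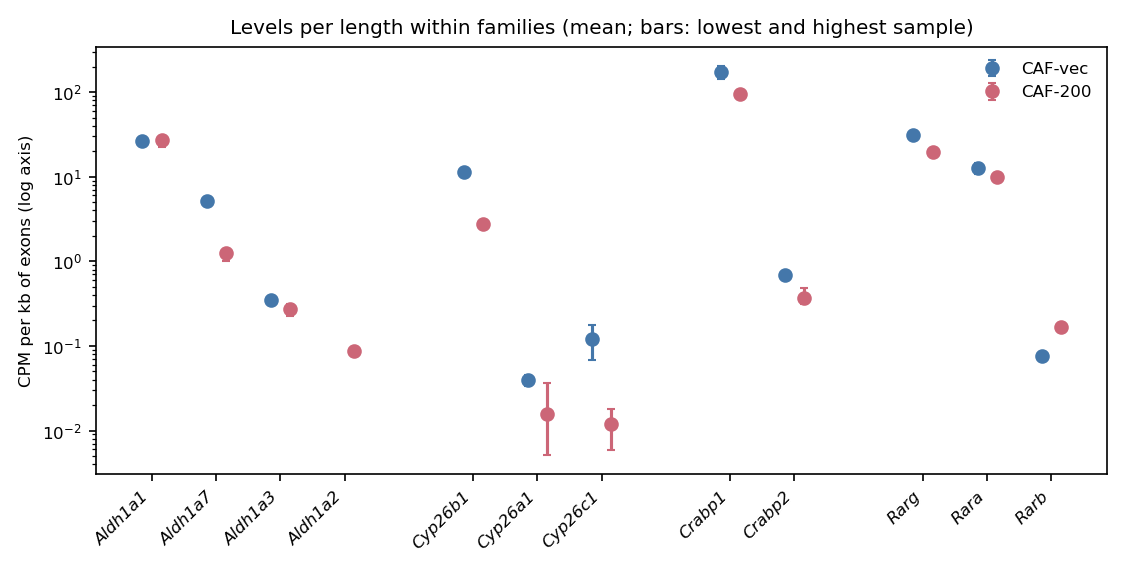
Mean CPM per kb of exons (log axis) in CAF-vec and CAF-200 for the 4 families, with bars from the lowest to the highest sample; *Aldh1a2* in CAF-vec is at 0 and has no point. 1 gene leads in each family in both groups, namely *Aldh1a1*, *Cyp26b1*, *Crabp1* and *Rarg*, and *Rarb* stays lowest of the receptors at 0.0752 and 0.168 CPM per kb.

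Over all 9 genes the order per length in CAF-vec was *Crabp1*, *Rarg*, *Aldh1a1*, *Cyp26b1*, *Dhrs3*, *Crabp2*, *Aldh1a3*, *Rarb* and *Aldh1a2*, and no neighbours overlapped between samples. By this length *Aldh1a1* has 4937 bases, whereas its longest transcript has 2358. The order of *Aldh1a1* and *Rarg* may therefore depend on the length used, which was not tested. In CAF-200, *Aldh1a1* (22.6 to 29.2 CPM per kb) stood above *Rarg* (19.3 to 20.5). *Cyp26b1* (2.54 to 2.94) overlapped *Dhrs3* (1.55 to 2.65), so these neighbours did not differ beyond their spread. The fourth place of *Cyp26b1* in CAF-vec, at 10.7 to 12.0 CPM per kb, was well clear of *Dhrs3* at 3.12 to 3.65.

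**Figure D4:**
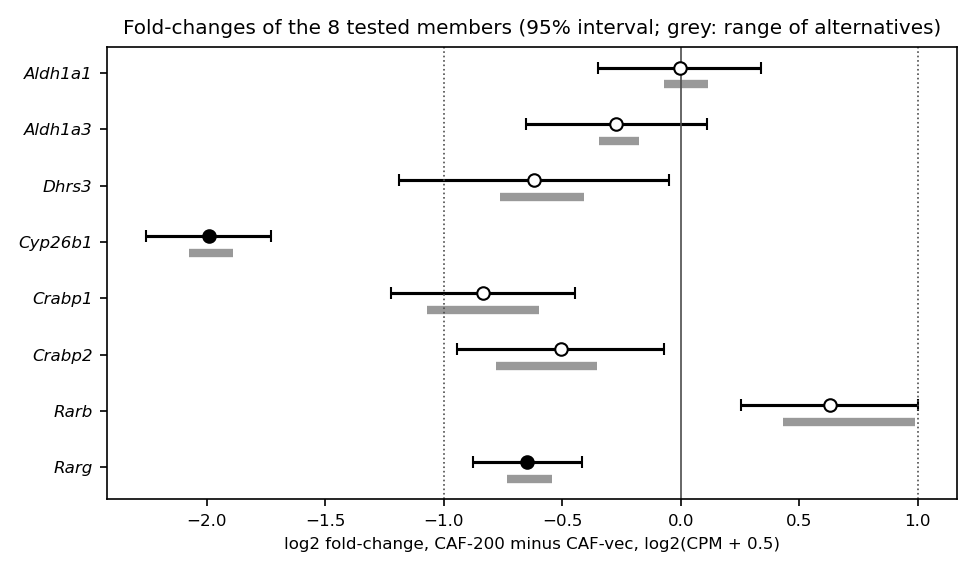
Log2 fold-change (CAF-200 minus CAF-vec) of the 8 tested genes with its 95% interval; filled points have an adjusted *p* under 0.01 (limma), dotted lines mark -1 and 1, and grey bars give the range over the alternative ways of processing. *Cyp26b1* at -1.99 lies wholly beyond -1, *Rarg* at -0.65 is the other filled point, and *Rarb* at 0.63 is the single gene to the right of 0.

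The wider pathway was described with 60 other genes in 6 lists. Of these, 40 were tested, 26 with a log2 fold-change below 0 and 14 above, with a median of -0.13. *Aldh1a7* and *Adh1* were called lower (2 of 40, against 2.35% of all genes), *Tgm2* was called higher (1 of 40, against 2.37%), and *Lpl* and *Ppard* were lower at an adjusted *p* under 0.01 without reaching the size for a call. All CAF-200 values were below both CAF-vec values for 15 and above both for 7 of the 40, where 37.3% and 24.3% of all genes were.

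The list of enzymes for retinol and retinal held both calls in the lower direction, 2 of 13 tested (2.35% of all genes), with a list median of -0.12. *Aldh1a7* is in the list as a close paralog of *Aldh1a1* and is not established as a retinal-oxidising enzyme, and *Adh1* is the other call. *Aldh1a7* was at 11.1 and 10.4 CPM in CAF-vec, against 2.73, 2.91 and 2.08 CPM in CAF-200, and fell by 1.88 on the log2 scale (SE 0.154, limma adjusted *p* = 0.00267). *Adh1*, an alcohol dehydrogenase that oxidises retinol, was at 1.78 and 1.88 CPM in CAF-vec, against 0.760, 0.525 and 0.603 CPM in CAF-200, and fell by 1.05 (SE 0.155, limma adjusted *p* = 0.00804). Neither gene had overlapping groups. *Adh1* kept an adjusted *p* under 0.01 but missed the size for a call with 1 CPM added in place of 0.5 (log2 fold-change -0.80) and after median centring (-0.95). It missed the adjusted *p* with the replicate number as a block (0.0387, limma), and it was not tested when every sample had to reach 1 CPM.

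Among genes for uptake, transport and storage of retinol, 4 of 15 were tested. *Lpl*, lipoprotein lipase, which releases lipids and retinyl esters from lipoproteins, was at 149.2 and 141.9 CPM in CAF-vec, against 85.9, 89.8 and 72.9 CPM in CAF-200. It fell by 0.81 on the log2 scale (SE 0.116, limma adjusted *p* = 0.00765). *Lpl* missed the adjusted *p* of 0.01 with the filter removed (0.0118, limma) and with the replicate number as a block (0.0396, limma). The other tested genes of this list did not pass the adjusted *p* of 0.01. None of the 3 other genes for retinoic acid breakdown reached the level for testing.

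Among 5 tested receptors and carriers, *Ppard*, a nuclear receptor that can also be reached by retinoic acid through the carrier FABP5, was at 32.8 and 30.5 CPM in CAF-vec, against 21.8, 21.9 and 21.0 CPM in CAF-200. It fell by 0.54 on the log2 scale (SE 0.0860, limma adjusted *p* = 0.00938). Its adjusted *p* (limma) was 0.0119 to 0.0134 after quantile normalization, median centring, removal of the filter or of the variance trend. With the replicate number as a block it was 0.0798 (limma), so *Ppard* was above 0.01 in each of these settings. *Fabp5*, named here after its values were seen, was at 38.5 and 73.3 CPM in CAF-vec, against 161.1, 177.8 and 144.8 CPM in CAF-200. These values were all higher, and the log2 fold-change of 1.59 (SE 0.272, limma adjusted *p* = 0.0114) did not pass the threshold of 0.01. The list median was -0.18, and all 8 coregulators were tested with none past the adjusted *p* of 0.01 in limma, 2 lower and 1 higher at an unadjusted *p* under 0.05 (27.6% and 17.3% of all genes), and a median of -0.12.

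Of 13 genes known to respond to retinoic acid, 10 were tested, 4 with a log2 fold-change below 0 and 6 above, and the median was 0.11. *Tgm2*, transglutaminase 2, a protein cross-linking enzyme, was called higher. It was at 5.29 and 5.11 CPM in CAF-vec, against 13.7, 12.8 and 14.9 CPM in CAF-200, so the groups were far apart. *Tgm2* rose by 1.32 on the log2 scale (SE 0.107, limma adjusted *p* = 0.00255). With the replicate number as a block its adjusted *p* was 0.0133 (limma), above 0.01. The other 9 did not pass the adjusted *p* of 0.01, and their log2 fold-changes ran from -0.62 to 1.63. *Aldh1a7*, *Adh1*, *Tgm2*, *Lpl* and *Ppard* were each past the adjusted *p* of 0.01 with all 5 samples, and not when any 1 CAF-200 sample was left out.

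**Figure D5:**
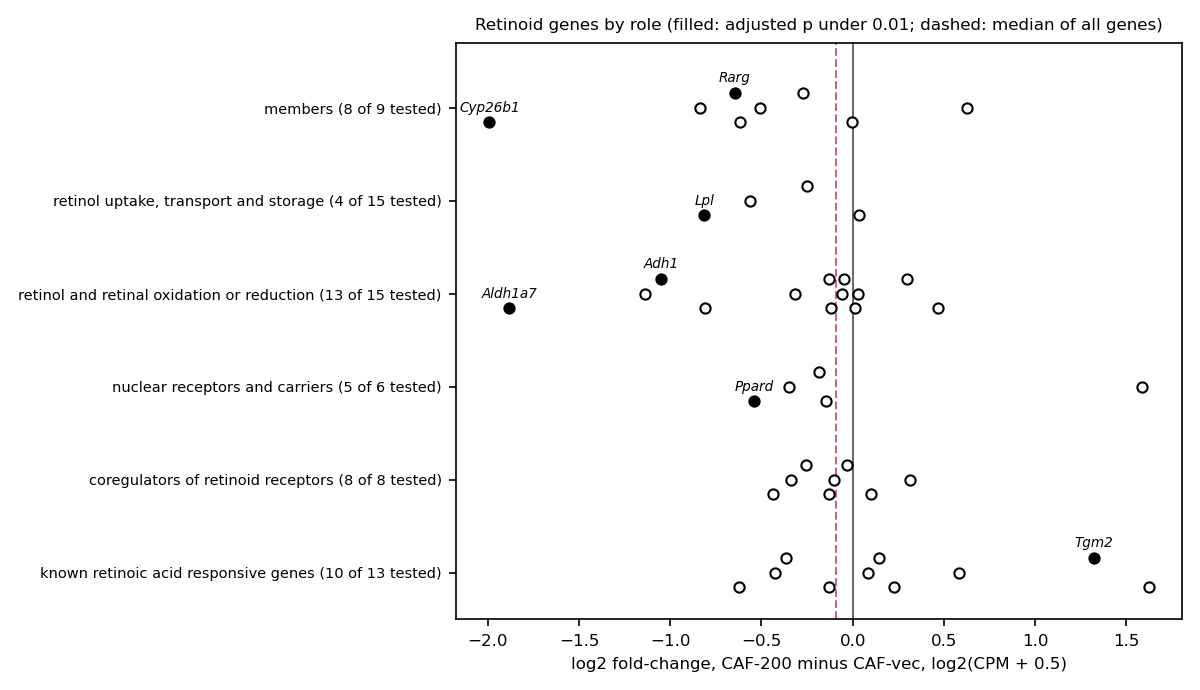
Each point is the log2 fold-change (CAF-200 minus CAF-vec) of 1 tested gene, grouped by role, filled and named at an adjusted *p* under 0.01 (limma), with the median of all genes (-0.094) dashed. *Cyp26b1* at -1.99 and *Aldh1a7* at -1.88 lie farthest to the left, and *Tgm2* at 1.32 is the filled point on the right.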

How the data were processed

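RNA of 2 CAF-vec and 3 CAF-200 samples had been sequenced from stranded mRNA libraries with paired ends. The deposited table holds 21835 genes as CPM, described by the authors as normalized. Their processing notes name FastQC, cutadapt, Trimmomatic, STAR, RSEM, edgeR and GRCm38 (mm10), without versions. The annotation they used is not given in the sources used here. Of low values, 36.1% to 72.8% per sample lay within 0.1 of a whole multiple of the commonest low value, so whole reads were not recovered, no count test was run, and the depth is unknown.

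The tested genes (0.5 CPM or more in 2 or more samples) were compared on log2(CPM + 0.5), over all 5 samples and without covariates, by the lmFit and trended eBayes functions of limma 3.58.1 (R 4.3.3). The fit was run on simulated data before use. There both groups had the same spread, shuffled among genes, whereas here the CAF-vec samples differed more than the CAF-200 samples. The simulation therefore cannot tell how the fit handles such unequal spread. The 9 genes, the lists and the tests were chosen with earlier results of these data known. Genes named are the 9, pathway genes with an adjusted *p* under 0.01, and the 3 genes most like a called one. Others (*Cyp26a1*, *Cyp26c1*, *Rara*, *Top2b*, *Msln*, *Fap*, *Dcn*, *Thy1*) were named as paralogs, an overlapping gene or markers, and *Fabp5* after its values were seen. Names, coordinates, exon lengths and 3′-UTRs came from GENCODE M21, which names 21795 of the genes, and microRNAs and promoters from RefSeq (GRCm38.p6, the same assembly). Alternatives were another pseudocount or filter, quantile normalization, median centring, no variance trend, other thresholds, the replicate number as a block and each sample left out in turn. Python 3.11.15, pandas 2.3.3, numpy 2.4.6, Biopython 1.88 and matplotlib 3.10.9 were used.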

Additional observations from a re-analysis of the deposited data

How the results depend on the processing

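Depth is unknown, only 2 CAF-vec samples enter, and the counting error of values under 1 CPM (*Rarb*, *Crabp2*, *Aldh1a2*) cannot be given. The test with edgeR was not run, because whole reads were not recovered. Over 13 alternatives, the log2 fold-change was -2.07 to -1.89 for *Cyp26b1*, -0.73 to -0.54 for *Rarg*, -1.07 to -0.60 for *Crabp1*, -0.76 to -0.41 for *Dhrs3* and -0.35 to -0.18 for *Aldh1a3*. Over 12, it was 0.43 to 0.99 for *Rarb* and -0.78 to -0.35 for *Crabp2*, both untested with at least 1 CPM required in every sample. The log2 fold-change of *Aldh1a1* reversed to 0.10 after quantile normalization, 0.092 after median centring and 0.11 with the replicate block, and ran from -0.071 to 0.11 with each sample left out.

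Of the 9 genes, 2 were called lower with a log2 fold-change beyond 0.5 (*Rarg* added; 5.56% of all genes) and 0 to 2 with each sample left out, 0 without any 1 CAF-200 sample, when 4 were lower at an unadjusted *p* under 0.05 (limma; 19.1% to 21.0% of all genes), and 2 without CAF-vec 2, when 7.53% of all genes were called lower. At an adjusted *p* under 0.01 (limma), 1 was lower with no filter (2.34% of all genes), 1 with the block (0.575%) and 3 after quantile normalization (*Crabp1* added, 5.00%). Without any 1 CAF-200 sample 0 of the 9 were lower, and 0 of all genes. With no filter 1 (*Aldh1a2*) was higher, where 2.16% of all genes were. Of the 60 pathway genes, 1 was called lower with a pseudocount of 1 CPM (2.01% of all genes) and with at least 1 CPM in every sample (2.07%). The same count held with median centring (1.87%) and with the block (0.575%). With a log2 fold-change beyond 0.5, 4 were called lower (5.56%). Without any 1 CAF-200 sample 0 of the pathway genes were called lower, and 0 of all genes. At an adjusted *p* under 0.01 (limma), 2 were lower with no filter (2.34% of all genes), 1 with the block (0.575%) and 0 to 12 with each sample left out. None was called higher or higher at that adjusted *p* with the block (limma, 5 at an unadjusted *p* under 0.05, 12.9% of all genes). 3 were called higher at an adjusted *p* under 0.05 (3.02% of all genes). Without any 1 CAF-200 sample 0 were called higher or were higher at an adjusted *p* under 0.01 (limma), where at most 1 of all genes was. Without CAF-vec 1, 9 were lower at an adjusted *p* under 0.01 and 4 higher, and without CAF-vec 2, 12 and 6. The shares of all genes rose with them, to 16.6% lower and 13.3% higher without CAF-vec 1 and 31.3% and 19.4% without CAF-vec 2. Without any 1 CAF-200 sample 0 were. Among all genes, leaving out 1 CAF-200 sample left 0 called lower and at most 1 higher. The lone CAF-vec sample in a fit without the other is assumed to vary like the CAF-200 samples.

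Samples of the groups share only a number. Deviations of same-numbered samples correlated at 0.249 (number 1) and 0.134 (number 2) over 12175 genes, and CAF-vec 2 and CAF-200 3, which differ in number, at 0.119. With 2 samples in CAF-vec, their deviations mirror each other, so these values say little about pairing. With the replicate block, the log2 fold-change was -0.63 for *Rarg* (limma adjusted *p* = 0.0540) and -1.93 for *Cyp26b1* (limma adjusted *p* = 0.00408), and 70 genes were called lower and 101 higher among all genes, where CAF-200 3 has no partner and does not enter.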
